A study of Danio rerio with 2 samples.

Results

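The genes described here encode the ligands and receptors of 4 families of guidance molecules, known first for steering growing axons and later for shaping blood vessels. Semaphorins bind plexins, often with neuropilins as co-receptors. Ephrins on one cell bind Eph receptors on its neighbour and can signal into both cells. Slits bind Robo receptors, and netrins bind Unc5 receptors. In vertebrate embryos ephrin-B2 is a textbook marker of arterial endothelium and its receptor EphB4 of venous endothelium, while plexin D1, Unc5b and Robo4 are known for roles in vessel sprouting and stability.

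The members were all features whose symbol begins with sema and a digit, plxn, efna, efnb, epha, ephb, robo, slit and a digit, unc5 or ntn. These were 92 of 27421 features, or 90 of 26764 gene symbols. For 2 symbols, plxnb2a and robo2, the files held 2 features each, and these were summed. The set held 29 semaphorins, 11 plexins, 13 ephrins, 15 Eph receptors, 4 Robo and 4 Slit genes, 5 Unc5 genes and 8 netrins or netrin-G genes. The last member, unc50, shares only the first letters of its name with the Unc5 genes and is not a netrin receptor.

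Levels were measured in zebrafish embryos of the AB strain at 48 hours post fertilization. All animals carried TgBAC(isl1:TagRFP), a red reporter driven by isl1 sequences, and Tg(dab2:EGFP), a green reporter driven by dab2 sequences, so both sorted fractions share both transgenes. Cells of tails cut behind the yolk were sorted into a fraction that was red and green, whose label is isl1-derived, and a fraction that was green without red, whose label is other. Each fraction was 1 library of droplet-captured single cells, read from the 3' end of the RNA. There was 1 library per fraction, so no value has a replicate and no test was made. Every interval below is a 95% interval for counting error only.

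The reporter RNA ran against the labels. In endothelial cells TagRFP stood at 5.59 UMIs per 1000000 UMIs of the class (CPM) in the library labelled isl1-derived and at 26.6 CPM in the library labelled other. The isl1 transcript stood at 2.32 and 19.6 CPM in the same order. These levels rested on 65 and 111 TagRFP UMIs and on 27 and 82 isl1 UMIs. The top cell gave 13.8% and 21.6% of the TagRFP UMIs and 33.3% and 37.8% of the isl1 UMIs. The library labelled other also held 24 cells with neural genes, at 3008 CPM for TagRFP and 3153 CPM for isl1. Their part in the endothelial levels was not tested. The names that the depositors gave the matrices also place the red signal in the library labelled other. The fractions are therefore named below only as the library labelled isl1-derived and the library labelled other, and which of them held the sorted red cells was not settled here; if the labels are exchanged, so is the meaning of every comparison between the libraries. GFP stood at 1280 and 1917 CPM, so the green reporter was present in both.

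Filtering left 2022 cells in the library labelled isl1-derived and 704 in the library labelled other, with a median of 9780 and 6616 UMIs per cell. No cell barcode was shared by the libraries. A cell was called endothelial where the endothelial genes cdh5, tie1, egfl7 and clec14a summed to at least 10 UMIs per 10000. This gave 1375 and 583 endothelial cells. They were divided by single genes into an esm1-high class (242 and 33 cells), an aqp8a.1-high class (314 and 64), a stab2-high class (446 and 372), a both-high class past the aqp8a.1 and the stab2 threshold (25 and 17) and a low class past none (348 and 97). Among the cells under the endothelial threshold, 461 and 42 passed the threshold for the blood progenitor genes myb, runx1, gata2b and ikzf1. These classes are ranges of a score, not cell types. Between 34 and 82 of the 1375 cells, and between 10 and 28 of the 583, lay within 20% of the esm1, aqp8a.1 or stab2 threshold.

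Marker lists followed the class names, but the lists hold the class genes themselves and so are no independent support for the names. The arterial list summed to 20044 and 20025 CPM in aqp8a.1-high cells of the library labelled isl1-derived and the library labelled other, against 1444 and 1523 CPM in stab2-high cells. The venous list summed to 10348 and 11929 CPM in stab2-high cells, against 1019 and 1662 CPM in aqp8a.1-high cells. The tip list, which includes esm1 itself, summed to 4569 and 3588 CPM in esm1-high cells. Aqp8a.1 alone gave 15463 and 16214 CPM of the arterial sums in aqp8a.1-high cells. Stab2 gave 3077 and 3668 CPM of the venous sums in stab2-high cells, and esm1 gave 3608 and 2804 CPM of the tip sums. The endothelial list, which holds the genes of the endothelial threshold, ran from 5632 to 7665 CPM over the endothelial classes of both libraries. It stood at 583 and 729 CPM in blood progenitors, which were taken from the cells under that threshold.

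Guidance genes were a small but widely detected part of endothelial RNA. All 90 members together summed to 3305 CPM in endothelial cells of the library labelled isl1-derived and to 3866 CPM in those of the library labelled other. Blood progenitors held 401 and 636 CPM. In the endothelial cells 54594 UMIs came from members, and 83 of the 90 had at least 1 UMI in each library. At least 20 UMIs over both libraries were found for 69 members and at least 100 for 48. Over all kept cells 8 members had under 20 UMIs: efna2b, efna5b, ntn4, sema3b, sema3gb, sema3h, sema4gb and slit1a. Reads were taken from the 3' end, where recovery differs between genes, so levels are compared below between cell classes and not between genes. Fewer cells with a transcript and less of it per cell cannot be told apart in the summed counts.

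The members were compared first between aqp8a.1-high and stab2-high cells, the arterial and venous ends of the classes. A ratio of 2 in the same direction in both libraries was found for 8 of the 48 members with at least 20 UMIs in each library. Higher in aqp8a.1-high cells were 5 members: efnb2a, sema7a, plxna3, sema6bb and efna5a. Of all 9527 genes measured in the same way, 3.51% were called higher. Lower in aqp8a.1-high cells were 3 members, unc5b, sema3fa and sema6d, beside 7.33% of all genes. The median log2 ratio of the 48 members was -0.10, against -0.01 for all genes, and 40 of the 48 lay on the same side of 0 in both libraries. The other 40 measured members did not reach a ratio of 2 in both libraries.

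**Figure D1:**
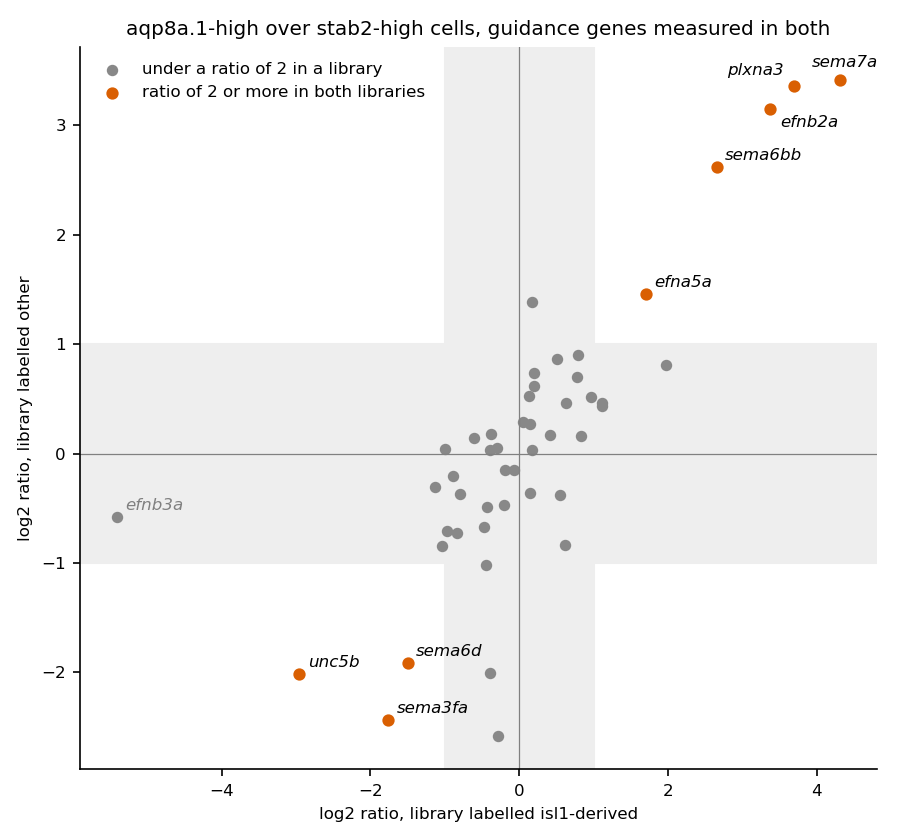
Log2 ratio of each guidance gene between aqp8a.1-high and stab2-high cells, in the library labelled isl1-derived (x axis) and in the library labelled other (y axis), for the 48 members with at least 20 UMIs in both. Each point is 1 gene, the grey bands mark ratios under 2, and the 8 named orange genes pass a ratio of 2 in the same direction in both libraries; efnb3a, at 0 UMIs in aqp8a.1-high cells of 1 library, is named in grey.

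Among the ligands, efnb2a, the arterial ephrin-B2 gene, stood at 281 CPM in aqp8a.1-high and 27.1 CPM in stab2-high cells of the library labelled isl1-derived. Its levels were 357 and 40.1 CPM in the library labelled other. The ratio was 10.4 (interval 8.37 to 13.0) in the first library and 8.90 (6.93 to 11.5) in the second. The duplicate efnb2b was less divided by class: it stood at 271 and 158 CPM in the first library and at 252 and 156 CPM in the second, a ratio of 1.71 and 1.62. Thinned to 2000 UMIs per cell, efnb2a was seen in 39.0% (interval 33.5 to 44.7) of aqp8a.1-high and 4.59% (2.79 to 7.07) of stab2-high cells of the library labelled isl1-derived. In blood progenitors of that library the share was 3.52%. Without thinning these shares were 74.8%, 13.5% and 19.7%, at median depths of 7989, 7004 and 25120 UMIs per cell, and the thinned share in stab2-high cells was thus near that in blood progenitors.

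The gene sema7a encodes a lipid-anchored semaphorin that binds plexin C1 and integrins in mammals. It stood at 162 CPM in aqp8a.1-high and 7.97 CPM in stab2-high cells of the library labelled isl1-derived, a ratio of 20.3 (interval 13.8 to 30.9). The levels were 125 and 11.6 CPM in the library labelled other, a ratio of 10.7 (6.82 to 17.2). Esm1-high cells lay between them at 63.9 and 48.5 CPM. Of the transmembrane class 6 semaphorins, sema6bb was higher and sema6d lower in aqp8a.1-high cells. The level of sema6bb was 24.1 against 3.70 CPM and 41.6 against 6.75 CPM in the 2 libraries. The level of sema6d was 34.0 against 96.3 CPM and 24.1 against 94.4 CPM. These members of 1 semaphorin class thus differed in opposite directions.

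The secreted class 3 semaphorin sema3fa stood at 35.1 CPM in aqp8a.1-high and 120 CPM in stab2-high cells of the library labelled isl1-derived, and at 30.7 and 171 CPM in the library labelled other. It was 3.40-fold and 5.57-fold lower in aqp8a.1-high cells. Its duplicate sema3fb was lower by smaller ratios of 1.36 and 2.04, from 178 against 243 CPM and 155 against 317 CPM. The membrane-anchored ephrin-A gene efna5a went the other way, at 107 against 32.8 CPM and 153 against 55.8 CPM. The other common ephrin-A genes, efna1a and efna1b, differed little, with ratios from 0.813 to 1.13 in both libraries.

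Slit3, a secreted ligand of Robo receptors, stood at 253 CPM in aqp8a.1-high and 519 CPM in stab2-high cells of the library labelled isl1-derived, and at 355 and 639 CPM in the library labelled other. It was 2.05-fold and 1.80-fold lower in aqp8a.1-high cells, so it missed a ratio of 2 in 1 library. Slit2 was at similar levels, with ratios of 1.04 and 1.20.

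Among the receptors, plxna3, a class A plexin that transmits class 3 semaphorin signals, stood at 86.5 CPM in aqp8a.1-high and 6.55 CPM in stab2-high cells of the library labelled isl1-derived. Its levels were 70.1 and 6.75 CPM in the library labelled other, and the ratios were 13.2 (interval 8.57 to 21.3) and 10.4 (5.66 to 19.7). Its relative plxna2 was highest in stab2-high cells, at 98.5 and 96.7 CPM, and stood at 53.3 and 83.2 CPM in aqp8a.1-high cells. The intervals of plxna2 in these 2 classes overlapped in the library labelled other, where the ratio was 0.861 (0.595 to 1.21).

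The netrin receptor gene unc5b was concentrated in stab2-high cells. It stood at 47.3 CPM there against 5.92 CPM in aqp8a.1-high cells of the library labelled isl1-derived, and at 48.3 against 10.9 CPM in the library labelled other. It was 7.98-fold and 4.42-fold lower in aqp8a.1-high cells, and esm1-high cells held 1.95 CPM in the first library and no UMI in the second, where 3 UMIs would make 13.2 CPM. Thinned to 2000 UMIs, unc5b was seen in 8.21% of stab2-high, 1.30% of aqp8a.1-high and 0% (interval up to 0.807) of blood progenitor cells of the library labelled isl1-derived, and without thinning in 24.2%, 4.14% and 1.08%.

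The ephrin-B receptor gene ephb4a was higher in stab2-high than in aqp8a.1-high cells, at 144 against 80.1 CPM and 147 against 87.6 CPM. This was 1.79-fold and 1.67-fold, so the venous receptor was less divided between the classes than its ligand efnb2a. Esm1-high cells held as much ephb4a as stab2-high cells within counting error, at 154 and 145 CPM. The second copy, ephb4b, was 1.74-fold and 1.30-fold higher in stab2-high cells. After thinning, both efnb2a and ephb4a were seen in the same cell in 7.14% (interval 4.53 to 10.6) of aqp8a.1-high, 6.33% (3.59 to 10.2) of esm1-high and 1.21% (0.393 to 2.80) of stab2-high cells in the library labelled isl1-derived. Multiplying the separate shares of the genes gives 5.95%, 8.64% and 1.24%, inside each interval, so the pair was seen together about as often as the separate shares give. The shares were 6.45% in aqp8a.1-high and 1.70% in stab2-high cells of the library labelled other, with products of 6.45% and 1.94%.

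Ephrin-B genes summed to 568 and 639 CPM in aqp8a.1-high cells of the 2 libraries and to 214 and 227 CPM in stab2-high cells. Slit genes summed to 291 and 394 CPM against 558 and 677 CPM. Most of these sums came from efnb2a, efnb2b and slit3, so they add little to the levels above. Class 3 semaphorins summed to 304 and 265 CPM against 479 and 613 CPM. Of other abundant members, robo4, epha7, plxnb2a and sema4c stayed within a ratio of 2 in both libraries. By their point ratios, sema4c and epha7 were lower in aqp8a.1-high cells, and robo4 and plxnb2a higher. Counting intervals of these ratios are not given here, so the directions of those nearest 1 are not settled. The ratio between aqp8a.1-high and stab2-high cells was 1.33 and 1.12 for robo4, 0.874 and 0.890 for the Eph receptor gene epha7, 1.11 and 1.19 for the plexin B2 gene plxnb2a and 0.738 and 0.711 for sema4c. The secreted netrins were sparse throughout, and their 5 genes together summed to 10.8 and 18.2 CPM in all endothelial cells.

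The summed muscle list of 4 genes also differed between these classes, and the fibroblast list did so in the library labelled isl1-derived only. The muscle list summed to 23.3 CPM in aqp8a.1-high and 102 CPM in stab2-high cells of the library labelled isl1-derived, and to 46.0 and 204 CPM in the library labelled other. In both-high cells of the library labelled other it summed to 161 CPM with no UMI of mylpfa or acta1b. The parts of single genes in the muscle sums are not given here. The fibroblast list summed to 36.7 and 113 CPM in the first library and to 67.9 and 66.7 CPM in the second. Their part in the levels of the members was not tested.

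Ordering the endothelial cells outside the esm1-high class by stab2 instead of cutting them once gave graded levels. From the lowest of 5 ranges of stab2 to the highest, efnb2a stood at 272, 136, 82.4, 35.1 and 27.5 CPM in the library labelled isl1-derived. The same ranges held 402, 198, 75.2, 47.7 and 37.2 CPM in the library labelled other. Each range of stab2 had a lower efnb2a level than the one before it in both libraries. Slit3 went the other way, from 171 to 735 CPM in the first library and from 280 to 871 CPM in the second, although the 3 lower ranges of the second library differed little, between 269 and 281 CPM. Unc5b stood at 5.69 CPM in the lowest range and 74.0 CPM in the highest in the first library, and at 4.67 and 64.9 CPM in the second. Plxna2 and ephb4a were not graded along the whole order. Plxna2 lay between 40.3 and 54.4 CPM in the 4 lower ranges of the library labelled isl1-derived and stood at 169 CPM in the highest range, and ephb4a lay between 75.1 and 98.2 CPM there and stood at 211 CPM.

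**Figure D2:**
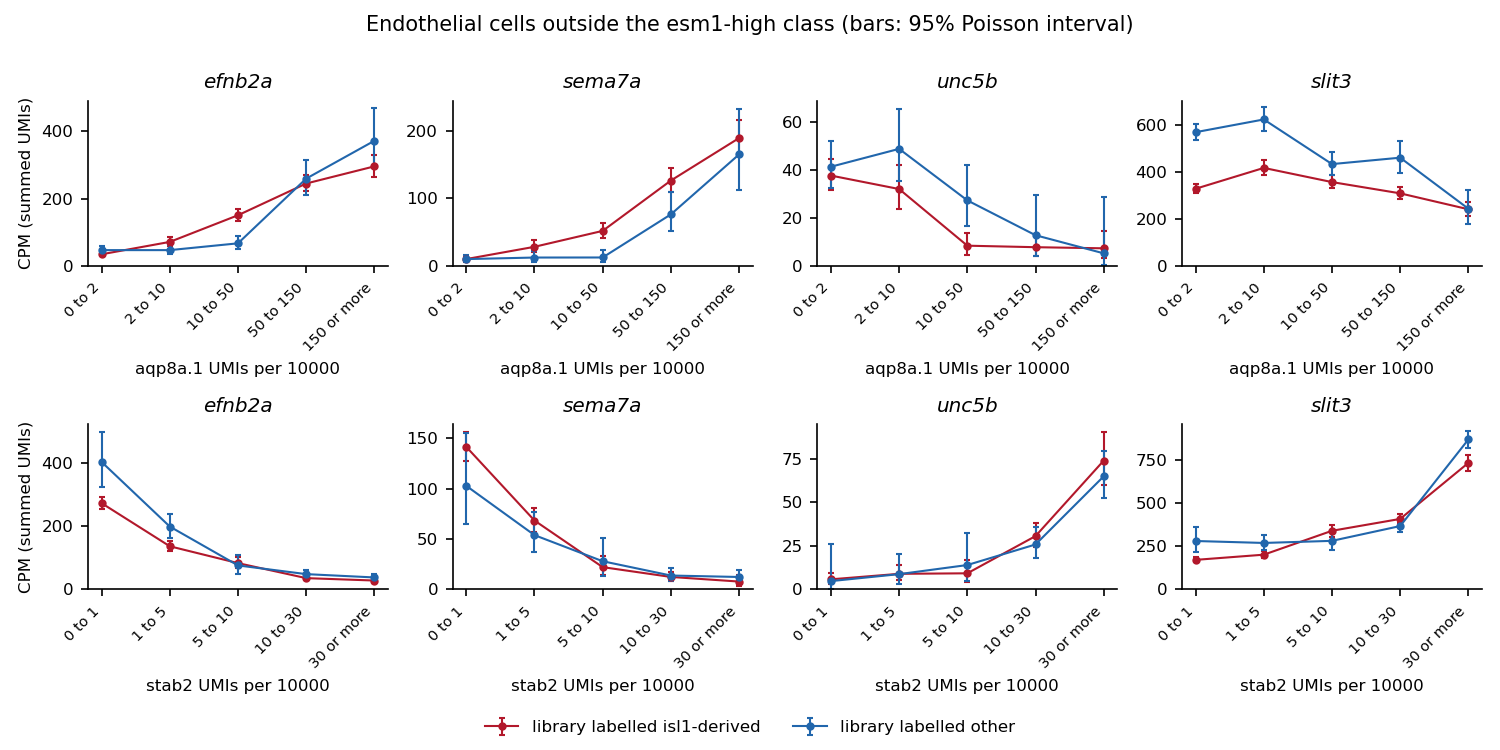
Level in CPM (y axis) of efnb2a, sema7a, unc5b and slit3 in endothelial cells outside the esm1-high class, summed over cells in 5 ranges of aqp8a.1 (upper row) or stab2 (lower row) UMIs per 10000 (x axis). Points are sums over all cells of a range, bars are 95% Poisson intervals and colours are libraries; efnb2a and sema7a are lowest, and unc5b and slit3 highest, in the range with most stab2.

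Esm1-high cells, named for a gene known from sprouting tip cells, were compared with aqp8a.1-high cells. The arterial list was high in both, at 15224 and 12920 CPM in esm1-high cells of the library labelled isl1-derived and the library labelled other. Aqp8a.1 alone gave 10594 and 9014 CPM of these sums. The comparison was counted only in the library labelled isl1-derived, since the library labelled other held 33 esm1-high cells, under the minimum of 50. Of 47 measured members, 5 were at least 2-fold higher in esm1-high cells: robo3, epha6, sema3ab, sema3fa and sema3ga. Among all genes 4.90% were called higher. Lower by 2-fold or more were 7 members, plxna2, sema6bb, efna5a, sema4ab, robo2, sema7a and robo1, beside 5.06% of all genes. The median log2 ratio was -0.05 for the members and 0.09 for all genes. With cells thinned to 2000 UMIs and 0.5 added to each count, the robo2 call ended and its ratio was 1.01, the sema3ga ratio was 1.90, and the robo3 ratio was just under 2. With thresholds doubled the sema3fa ratio was 1.63.

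The Robo genes differed in opposite directions. Robo3 stood at 128 CPM in esm1-high and 38.7 CPM in aqp8a.1-high cells of the library labelled isl1-derived, and at 101 and 46.0 CPM in the library labelled other. The ratios were 3.32 (interval 2.62 to 4.22) and 2.20 (1.17 to 4.19). Robo4, the endothelial Robo receptor, was also higher in esm1-high cells, at 298 against 197 CPM and 326 against 210 CPM, by ratios of 1.51 and 1.55. Robo1 was lower, at 70.7 against 169 CPM and 128 against 267 CPM, or 2.38-fold and 2.09-fold. Robo1, at 257 and 242 CPM in stab2-high cells, was thus lowest in esm1-high cells among the 3 main classes, robo3 was highest there, and robo4 stood between 148 and 326 CPM in every endothelial class.

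Within the class A plexins, plxna3 stood at 147 and 150 CPM in esm1-high cells, above its level in aqp8a.1-high cells by 1.70-fold (interval 1.43 to 2.04) and 2.14-fold (1.28 to 3.58). Plxna2 stood at 7.80 and 13.2 CPM there, 6.83-fold and 6.29-fold under aqp8a.1-high cells. In the library labelled other this plxna2 level came from 2 of 33 cells, so the ratio of 6.29 is uncertain. The order of the 2 receptor genes was therefore opposite at the esm1-high and stab2-high ends, each gene being compared with itself between classes. Plxna1a stood at 35.6 and 22.0 CPM in esm1-high, 57.2 and 50.4 CPM in aqp8a.1-high and 14.5 and 29.2 CPM in stab2-high cells. Plxnd1, the endothelial plexin known from zebrafish intersegmental vessels, was sparse, with 44 and 28 UMIs in all endothelial cells (3.78 and 6.71 CPM). No difference between classes could be read from so few UMIs.

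**Figure D3:**
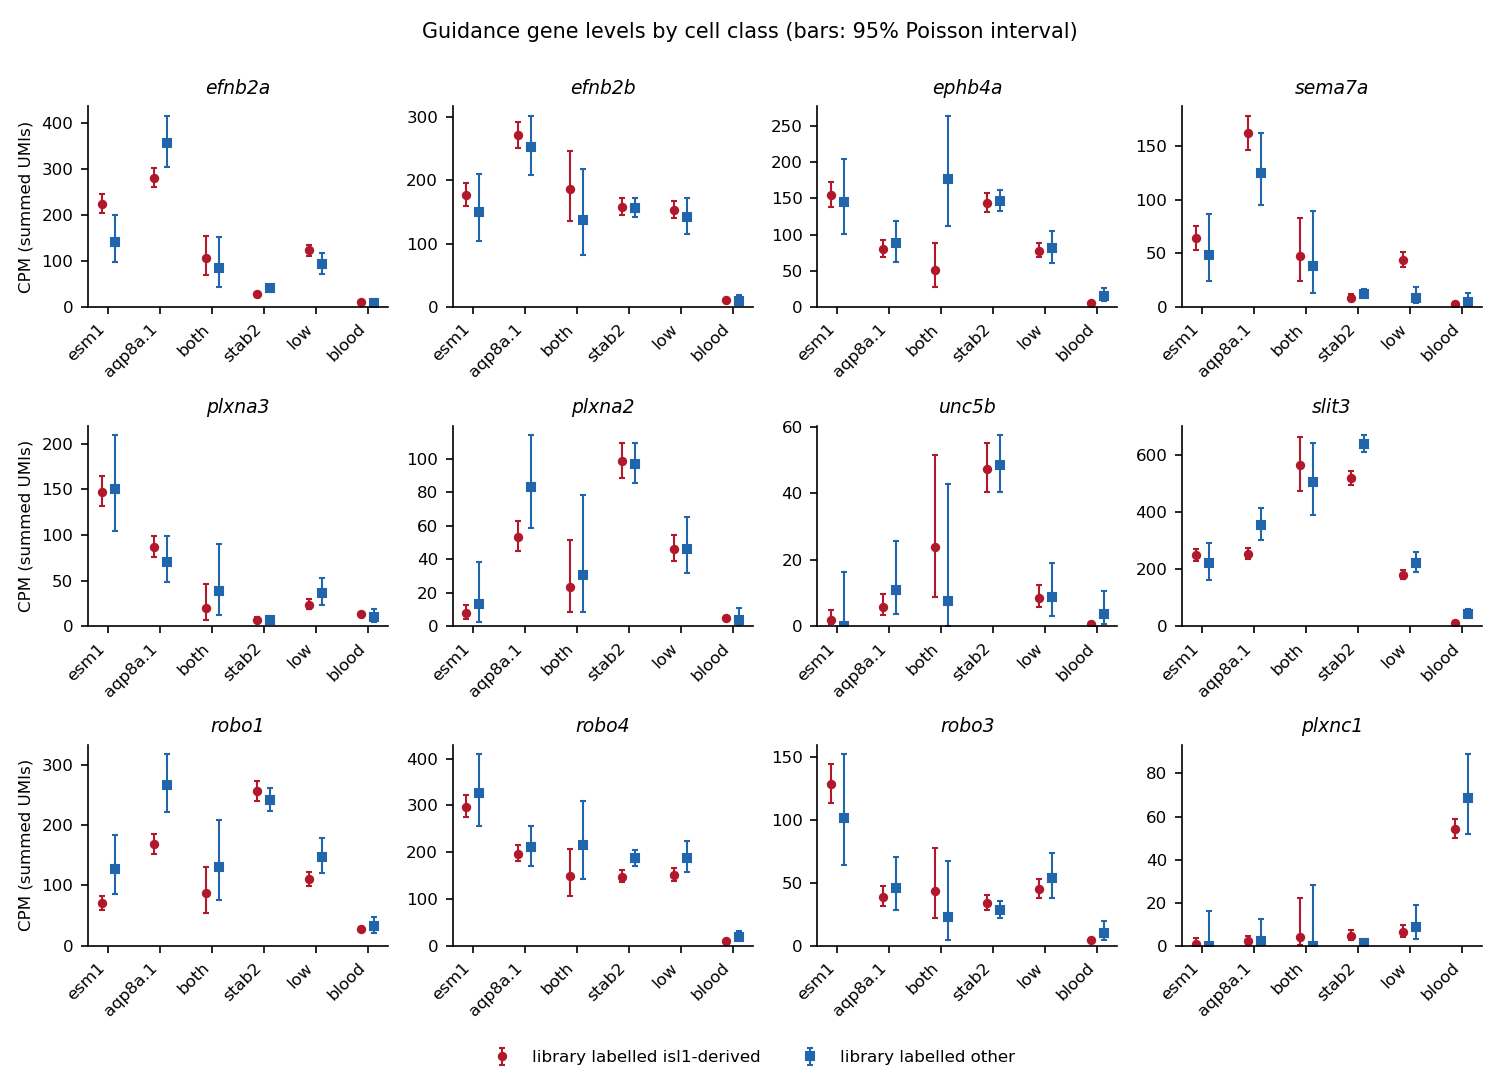
Level in CPM (y axis) of 12 guidance genes in 5 endothelial classes and in blood progenitors (x axis), for the library labelled isl1-derived (red circles) and the library labelled other (blue squares). Points are sums over all cells of a class and bars are 95% Poisson intervals; efnb2a, sema7a and plxna3 are low in stab2-high cells in both libraries, unc5b and plxna2 are high there, robo3 is highest in esm1-high cells and plxnc1 in blood progenitors.

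Among the ligands, 3 class 3 semaphorins were higher in esm1-high than aqp8a.1-high cells. Sema3ab stood at 143 against 65.1 CPM in the library labelled isl1-derived and at 123 against 54.7 CPM in the library labelled other. Sema3fa stood at 93.2 against 35.1 CPM and at 150 against 30.7 CPM, so it was lowest in aqp8a.1-high cells among the 3 main classes. Sema3ga was sparser, at 25.4 against 7.90 CPM in the first library and 22.0 against 2.19 CPM in the second, where both levels rested on few UMIs. The Eph receptor gene epha6 stood at 41.0 against 12.2 CPM in the first library, a ratio of 3.35 (interval 2.19 to 5.23). In the second it rested on few UMIs, and its ratio of 5.03 had an interval from 0.824 to 52.8.

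The receptor partners were described beside the members. A list of 54 co-receptors and cytoplasmic partners, 51 of them in the files, was used. Between aqp8a.1-high and stab2-high cells 38 were measured, of which 3 were higher and 5 lower, beside 3.51% and 7.33% of all genes. The neuropilins, semaphorin co-receptors that do not match the members' rule, were divided in the same cells. Nrp1a stood at 400 CPM in aqp8a.1-high against 121 CPM in stab2-high cells in the library labelled isl1-derived and at 519 against 144 CPM in the library labelled other. Nrp2b stood at 29.6 against 328 CPM and at 46.0 against 364 CPM, 11.1-fold and 7.91-fold lower. Nrp2a was also lower, by 10.2-fold and 2.80-fold. Of the netrin receptors outside the rule, neo1a was higher in aqp8a.1-high cells, at 79.0 against 30.8 CPM and 103 against 19.1 CPM, while dcc stood at 1.12 and 2.16 CPM in all endothelial cells. Flrt2, which encodes a membrane protein that binds Unc5 receptors in mammals, was lower in aqp8a.1-high cells like unc5b, at 7.90 against 80.3 CPM and 10.9 against 99.7 CPM. The remaining 3 called partners were evla, which was higher, and mical3a and ngef, which were lower. Between esm1-high and aqp8a.1-high cells, 39 partners were measured, nrp1b was 2.03-fold higher, and nrp1a and rnd1b were 2.28-fold and 2.31-fold lower. In that comparison 4.90% of all genes were called higher and 5.06% lower.

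Between endothelial cells and blood progenitors most members were far apart. In the library labelled isl1-derived, 71 members were measured, 53 were at least 2-fold higher in endothelial cells and 4 at least 2-fold lower. Among all genes 36.3% were called higher and 17.6% lower. The median log2 ratio was 2.66 for the members and 0.46 for all genes. Median-of-ratios scaling shifted every value of this comparison by -0.46 on the log2 scale, and 50 members were then higher and 5 lower. With only 42 blood progenitors in the library labelled other, 43 of 57 measured members were higher and 3 lower, beside 36.9% and 17.7% of all genes. Of the partner list, 36 of 47 measured genes were higher and 2 lower in endothelial cells of the library labelled isl1-derived.

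**Figure D4:**
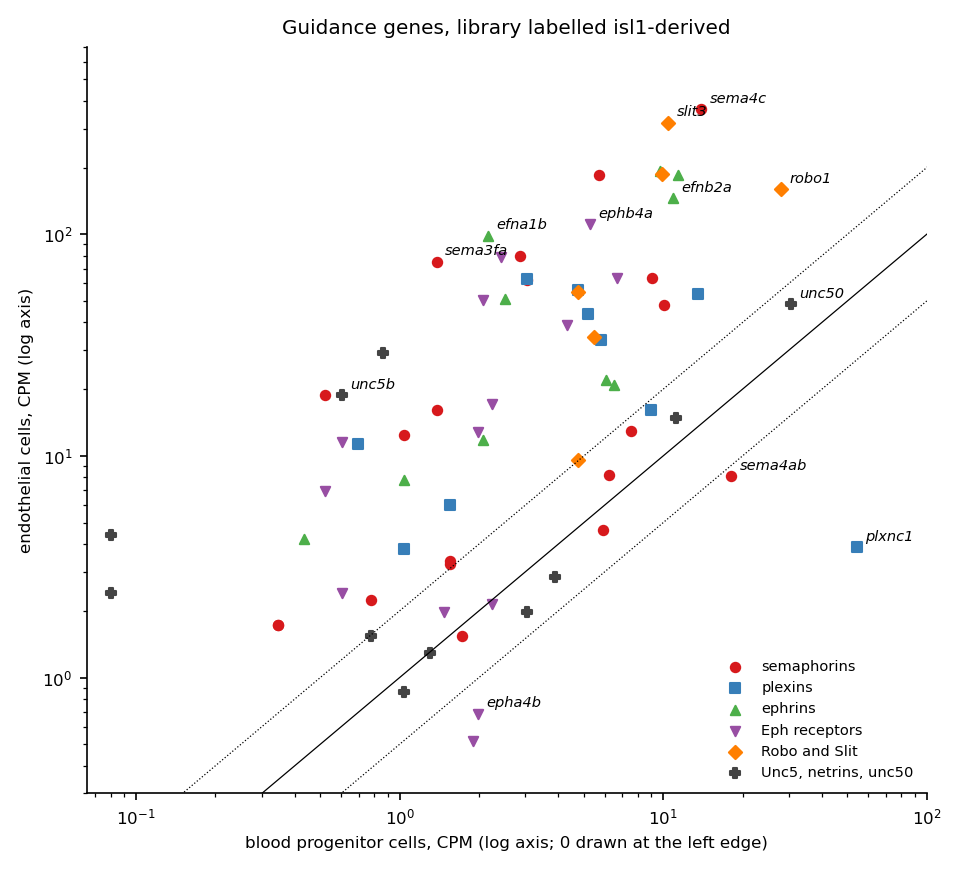
Level of each of the 71 measured guidance genes in blood progenitors (x axis, CPM, log axis) and in endothelial cells (y axis, CPM, log axis) of the library labelled isl1-derived. Each point is 1 gene coloured by family, the solid line marks equal levels and the dotted lines a ratio of 2; most genes lie above the upper dotted line, and plxnc1, sema4ab, epha4b and epha4l lie under the lower one.

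The measured ephrin, Robo and Slit genes were each at least 2-fold higher in endothelial cells of the library labelled isl1-derived. These were 5 of 5 ephrin-A, 5 of 5 ephrin-B, 4 of 4 Robo and 2 of 2 Slit genes, with 3 ephrin and 2 Slit members under the minimum. Of the class 3 semaphorins 6 of 6 measured members were higher, of the plexins 8 of 10, of the EphA receptors 6 of 8 and of the EphB receptors 4 of 6. Of the Unc5 genes 2 of 4 were higher, of the netrins 1 of 4 and of the netrin-G genes 1 of 2. A member measured only through its endothelial UMIs had to be higher, so these counts describe the measured members and are not read against the 36.3% of all genes.

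Sema4c, which encodes a transmembrane semaphorin that binds plexin B2 in mammals, stood at 366 CPM in endothelial cells against 13.9 CPM in blood progenitors of the library labelled isl1-derived, and at 452 against 37.9 CPM in the library labelled other, ratios of 26.3 (interval 22.5 to 31.0) and 11.9 (8.37 to 17.6). After thinning it was seen in 40.3% of aqp8a.1-high, 51.7% of stab2-high and 1.98% of blood progenitor cells of the library labelled isl1-derived, and without thinning in 72.6%, 79.6% and 18.9%. In the library labelled isl1-derived, the ephrin genes efna1a and efna1b were higher by 19.8-fold and 45.6-fold, and the receptor gene epha2a by 32.7-fold. Slit3, robo4 and ephb4a were higher in that library by 30.5-fold, 18.9-fold and 21.0-fold. Summed by family, Slit genes were 21.1-fold higher there and 10.7-fold in the library labelled other. The ephrin-A, EphA, EphB and Robo sums also had smaller ratios in the library labelled other. Ratios were smaller for robo1 (5.71 and 6.65 in the 2 libraries) and plxna3 (3.98 and 2.79).

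Low levels in blood progenitors can be free RNA, doublets or low expression, which were not told apart here. The endothelial junction gene cdh5, used in the class threshold, was 34.6-fold higher in endothelial cells than in blood progenitors of the library labelled isl1-derived and 17.3-fold in the library labelled other. Dab2 was 17.3-fold and 12.7-fold higher. Blood progenitor levels of members with ratios in this range were not read as expression. Sema4c, slit3 and robo4 lay in it in the library labelled isl1-derived. In the library labelled other, sema4c and the summed Slit genes (10.7-fold) lay under the ratios of cdh5 and dab2. Their levels there were not read as expression either. In the other direction, the neutrophil gene lyz stood at 71.3 CPM in endothelial cells and 2036 CPM in blood progenitors of the library labelled isl1-derived, 28.6-fold apart.

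Plxnc1, a plexin known from leukocytes and a receptor for semaphorin 7A in mammals, was the member with the largest excess in blood progenitors. It stood at 54.3 CPM there against 3.87 CPM in endothelial cells of the library labelled isl1-derived, and at 68.4 against 2.40 CPM in the library labelled other. It was 14.0-fold and 28.6-fold lower in endothelial cells. The myeloid list stood at 2435 and 662 CPM in the same blood progenitors, against 92.8 to 119 CPM and 6.57 to 34.7 CPM in the endothelial classes. Of the sums in blood progenitors lyz gave 2036 and 276 CPM, and mpx only 31.8 and 4.89 CPM. The part of myeloid genes in the plxnc1 level was not tested. The gene for its ligand, sema7a, was thus highest in aqp8a.1-high cells and plxnc1 itself in blood progenitors. After thinning plxnc1 was seen in 9.23% (interval 6.73 to 12.3) of blood progenitors and 0.325% of aqp8a.1-high cells, and without thinning in 57.0% and 1.27%. Sema4ab, a class 4 semaphorin gene, was also lower in endothelial cells, at 8.08 against 18.1 CPM and 4.79 against 20.8 CPM. The other called members, epha4b and epha4l, stood under 2 CPM in both classes. Ntn1a, a netrin gene, was lower as well in the library labelled other, at 2.87 against 23.2 CPM, whereas in the library labelled isl1-derived it stood at 1.98 against 3.03 CPM. Unc50 differed little, at 48.5 against 30.5 CPM and 41.9 against 23.2 CPM.

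Some endothelial cells passed the blood progenitor threshold too, 98 of 1375 and 21 of 583. A comparison of these cells with the other endothelial cells was chosen after their levels were seen. In the library labelled isl1-derived, 65 members were measured, 9 were at least 2-fold higher in the cells past both thresholds and 11 at least 2-fold lower. Among all genes 12.2% were called higher and 10.3% lower. Of the 9 higher members, 7 were also at least 2-fold above blood progenitors: sema5a, sema6bb, unc5a, ntn5, efna3b, ephb2b and ephb1. Among all 13222 genes measured in the same way, 4.12% were higher than both. The 9 of 65 lay near the share of all genes, so the values below describe single members and not the guidance genes as a group. All 6 ephb1 UMIs came from 1 cell.

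The class 5 semaphorin gene sema5a stood at 37.1 CPM in the cells past both thresholds, 5.21 CPM in the other endothelial cells and 6.23 CPM in blood progenitors of the library labelled isl1-derived. It stood at 57.0, 11.1 and 12.2 CPM in the library labelled other, where 1 cell gave 53.8% of the UMIs. Sema6bb stood at 60.3, 8.05 and 7.53 CPM in the first library and at 30.7, 10.1 and 8.55 CPM in the second. The netrin receptor gene unc5a stood at 44.5, 11.7 and 11.2 CPM and at 110, 18.0 and 11.0 CPM. The netrin gene ntn5 stood at 11.1, 1.99 and 3.89 CPM and at 57.0, 3.29 and 9.77 CPM. These 4 genes were taken from the members called higher than both other classes in the library labelled isl1-derived. Their order in that library therefore follows from the choice. In the library labelled other, which was not used for the choice, their point levels also lay above those of both other classes. Levels of efna3b, ephb2b and ephb1, which passed the same call, are not given here for either library. The cells past both thresholds had a median of 9618 and 7446 UMIs, against 7925 and 6433 for all endothelial cells, and the part of doublets in these values was not tested. The UMIs of sema6bb were spread over 31 of the 98 cells, of sema5a over 25, of unc5a over 22 and of ntn5 over 9. In the library labelled other the ntn5 level rested on 13 UMIs in 5 of the 21 cells. The lower sema6bb level in these 21 cells rested on fewer UMIs still.

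Other members took values between the classes. Plxnc1 stood at 19.5 CPM in the cells past both thresholds, between 2.27 CPM in the other endothelial cells and 54.3 CPM in blood progenitors of the library labelled isl1-derived. Sema3fb stood at 64.0 CPM, between 198 and 5.71 CPM. Without the cells past both thresholds, the ratio of sema6bb between aqp8a.1-high and stab2-high cells was 5.70 in the library labelled isl1-derived and 6.92 in the library labelled other, with 0.5 added to each count.

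**Figure D5:**
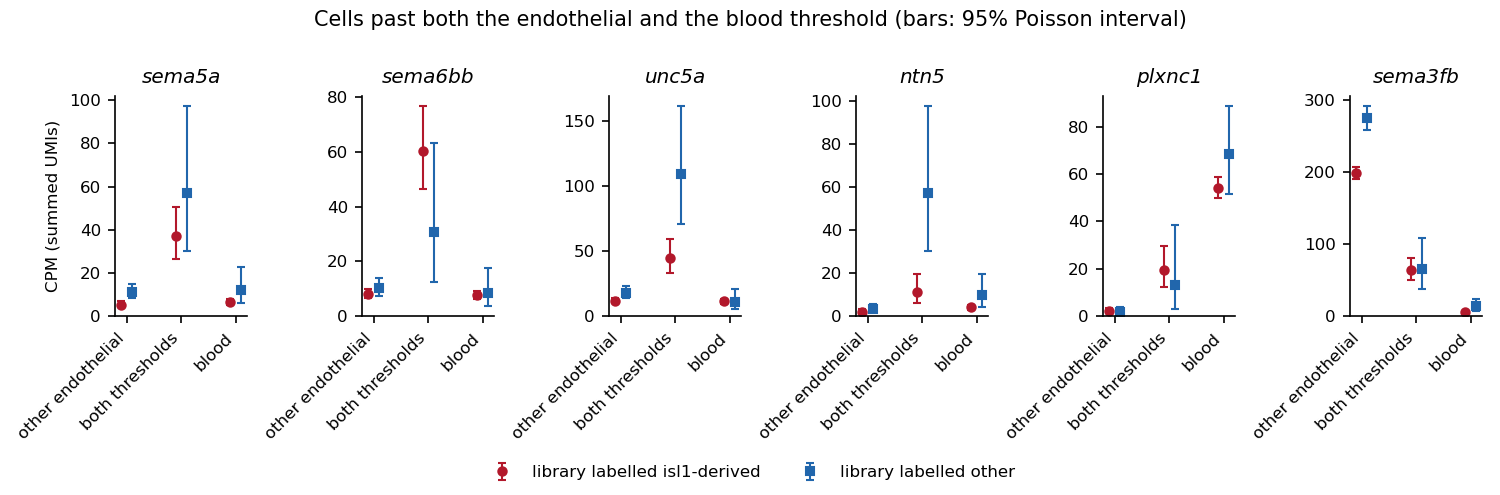
Level in CPM (y axis) of 6 guidance genes in endothelial cells under the blood threshold, in cells past both the endothelial and the blood threshold, and in blood progenitors (x axis), for the library labelled isl1-derived (red) and the library labelled other (blue). Points are sums over cells and bars are 95% Poisson intervals; sema5a, sema6bb, unc5a and ntn5 are highest in the cells past both thresholds, plxnc1 and sema3fb lie between the other 2 classes.

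Between the endothelial cells of the 2 libraries few members were apart, at shares near those of all genes. Of 69 measured members, 2 had a ratio of 2 or more toward the library labelled isl1-derived, sema7a and sema3d, beside 3.07% of all genes. Lower by 2-fold or more were 4, efnb3a, ntn5, sema5bb and slit1b, beside 4.13% of all genes. The median log2 ratio was -0.23 for the members and -0.08 for all genes. With 1 library on each side, and with TagRFP and isl1 RNA against the labels, these values describe 2 libraries and not the sorted fractions.

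The classes made up different shares of the libraries. Aqp8a.1-high cells were 15.5% of the cells kept in the library labelled isl1-derived and 9.09% of those in the library labelled other, and stab2-high cells were 22.1% and 52.8%. The sort can set these shares. Sema7a stood at 62.2 against 26.4 CPM over all endothelial cells, a ratio of 2.36 (interval 1.93 to 2.91). Within aqp8a.1-high cells its ratio was 1.30 (0.981 to 1.74) and within stab2-high cells 0.686 (0.397 to 1.18), while in low cells it was 5.02 (2.25 to 13.9), from 43.5 against 8.66 CPM. Unc5b stood at 18.8 against 33.8 CPM over all endothelial cells, a ratio of 0.557, and at 0.978 (0.772 to 1.24) within stab2-high cells. Epha7, an EphA receptor gene, was lower in the library labelled isl1-derived over all endothelial cells (0.569, 0.498 to 0.650), in stab2-high cells (0.635) and in aqp8a.1-high cells (0.624, 0.430 to 0.925). Sema3ga was 3.25-fold lower in low cells and 2.01-fold lower in stab2-high cells. Its ratio in aqp8a.1-high cells was 3.61, from 7.90 against 2.19 CPM, with an interval (0.577 to 149) that includes equal levels. Its level in esm1-high cells was 25.4 against 22.0 CPM, so no opposite direction could be read from these classes. Sema3d, the other member counted as higher, rested on 20 and 2 UMIs and had an interval from 0.872 to 31.7.

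Within stab2-high cells alone, 59 members were measured, and 1 was higher (epha3) and 6 lower in the library labelled isl1-derived, beside 1.93% and 2.60% of all genes. The other 52 lay within a ratio of 2 between the libraries in this class. The 6 lower members were a larger share of the 59 than the 2.60% of all genes, which was not tested with 1 library on each side.

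A further 24 cells of the library labelled other, under the endothelial and blood thresholds, passed a threshold for neural genes, and 38 members had at least 5 UMIs in them. Of these, 22 were more than 2-fold above every endothelial and blood class, beside 31.7% of the 5627 genes with at least 5 UMIs there. Slit3 stood at 1398 CPM, plxna3 at 516 CPM, epha4b at 470 CPM, unc5a at 439 CPM and plxna4 at 191 CPM there. TagRFP stood at 3008 CPM and isl1 at 3153 CPM in these cells. Elavl3, a neuronal gene at 1316 CPM in them, stood at 1.92 CPM in the endothelial cells of that library and at 0.430 CPM in those of the library labelled isl1-derived. The neural list had 0 to 62.1 CPM in the endothelial classes. The part of neural RNA in the endothelial levels was not tested.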

How the data were processed

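Single-cell libraries of 2 sorted fractions, 1 each, were analysed from the deposited counts of unique molecular identifiers (UMIs), whole numbers per gene and cell barcode. Per the submitters' processing notes the counts were made with Cell Ranger 5.0.0 on GRCz11, and per the file headers with Cell Ranger 5.0.1. The files held 2072 and 730 barcodes with 26865577 and 5698957 UMIs. Here barcodes under 500 genes, or with 10% or more of their UMIs from mitochondrial genes, were removed (42 and 21), and Scrublet in scanpy 1.11.5 then removed 8 and 5 called doublets. Scrublet marked under 0.5% of the cells of the larger library, so doublets are not taken as removed.

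UMIs were summed over the cells of a class and divided by their total, giving UMIs per 1000000 (CPM). Endothelial thresholds per 10000 UMIs were 10 for esm1, 50 for aqp8a.1 and 10 for stab2; blood progenitors needed 2 and neural cells 5. Esm1-high cells were set aside first. Poisson intervals for levels, binomial (Clopper-Pearson) intervals for shares and conditional binomial intervals for ratios were exact. Log2 ratios had 0.5 added to each count. The term measured means 20 or more UMIs over the compared classes, per library, and a gene was called at a ratio of 2 in every library with at least 50 cells of both classes. For shares, cells were thinned to 2000 UMIs, which left out 75 and 39 cells. Other settings were tried and stand in the closing section. Python 3.11.15, numpy 2.4.6, scipy 1.17.1, pandas 2.3.3 and matplotlib 3.10.9 were used, and the ratios were tested on simulated data.

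The members and all gene lists were chosen with earlier results of these data known. Named were, per family, up to 4 members with most UMIs, up to 2 with the largest ratio in each direction and comparison, and 13 fixed members such as efnb2a and plxnd1; plxna4 was named after its values were seen. Marker lists not given in the report, over the endothelial classes of both libraries, were blood progenitor (410 to 1242 CPM, against 2730 and 2306 CPM in blood progenitors), erythroid (0 to 105 CPM), myeloid (6.57 to 119 CPM) and epidermal (13.1 to 27.2 CPM). The name table held 91 of the 92 feature IDs; symbols are those of the files, and the table names the features of sema6d, sema6e and plxnb2a differently.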

Additional observations from a re-analysis of the deposited data

How the results depend on the processing

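Counts of members called were recomputed under 14 other settings. No share of all genes stands beside them, so they show only how far the calls depend on the setting. The following moved by over 1.5 times. With cells thinned to 2000 UMIs, 3 members were higher and 5 lower in aqp8a.1-high than stab2-high cells, 1 was lower in endothelial than blood progenitor cells and 2 were lower in the library labelled isl1-derived. With every cell weighted equally, 7 were lower in aqp8a.1-high cells. With thresholds halved, 9 were higher in esm1-high than aqp8a.1-high cells. With a minimum of 100 UMIs, 2 were higher in aqp8a.1-high than stab2-high cells, 4 lower in esm1-high cells, 2 lower in endothelial cells, and 1 higher and 0 lower in the library labelled isl1-derived. With a minimum of 1 UMI, 7 were lower in aqp8a.1-high cells, 17 higher and 18 lower in esm1-high cells, and 6 higher and 11 lower in the library labelled isl1-derived. At a ratio of 1.5, 8 were higher and 6 lower in aqp8a.1-high cells, 11 higher and 14 lower in esm1-high cells, and 7 higher and 19 lower in the library labelled isl1-derived. Over all settings 41 to 63 members were higher in endothelial cells than in blood progenitors.

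Of the 282 ratios of named members, 79 lay outside the 95% counting interval of the main value when cells were thinned, 28 with cells weighted equally, 27 under median-of-ratios scaling, 20 with a blood threshold of 5 and 15 with thresholds doubled; each other setting moved at most 10, and 3 turned in direction when thinned. Plxnc1 between aqp8a.1-high and stab2-high cells of the library labelled isl1-derived then had a ratio of 1.34, robo2 between esm1-high and aqp8a.1-high cells 1.01, and sema5ba between endothelial and blood progenitor cells 0.599. Sema5ba had 0.978 with cells weighted equally. These ratios had 0.5 added to each count, and thinning left fewer UMIs. Leaving out a replicate was not possible with 1 library per fraction. No paired analysis was possible because each fraction was 1 library without replicate numbers. Low counts limit the sparse members, plxnd1 and most netrins among them. The parts of depth, 3' recovery and expression in these counts were not tested.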

Other observations

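Among the 55 cells of the library labelled other that passed no class threshold, robo3 had 70 UMIs in 8 cells, and the top 3 cells held 63 of them (36, 19 and 8). In the library labelled isl1-derived, 186 such cells held 27 robo3 UMIs in 20 cells, with at most 3 in 1 cell.

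Efnb3a, an ephrin-B gene, had no UMI in aqp8a.1-high cells of the library labelled isl1-derived, where stab2-high cells held 8.26 CPM. In the library labelled other it stood at 6.57 and 11.2 CPM in the same classes.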
